A study of Mus musculus with 35 samples.

Results

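The wild-type microglia gate of the single-cell plates was the set of wells sorted as PDGFRB low, PECAM1 low, CD41 positive and CD45 medium on plates 1, 2 and 3. Cells were kept where more than 1500 transcripts were counted with the spike-ins left out, which retained 128 of 134 wells. The kept cells numbered 64, 58 and 6 on the 3 plates, among 686 kept cells of all 4 gates. All cells came from dissociated E14.5 mouse brain that carried no mutation in the series' design. Strain and sex are not given in the labels, and neither the labels nor the paper's main text say which brain filled which plate. The reference cells were 123 of the neural gate, 210 of the mural gate and 225 of the endothelial gate. A second readout came from bulk RNA-seq of microglia, neural, mural and endothelial cells sorted from each of 3 brains, which the labels number, where microglia were gated as CD45 medium, CD11b positive, PECAM1 negative and PDGFRB negative.

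Microglia are the resident macrophages of the central nervous system. They arise from yolk sac progenitors, enter the brain early in development and depend on signalling through the receptor CSF1R. In the healthy brain they express a set of surveillance genes that includes the purinergic receptor *P2ry12* and the fractalkine receptor *Cx3cr1*, often called homeostatic. In development and disease they can shift to an activated programme of lipid handling and lysosomal genes led by *Apoe*, *Lpl* and *Spp1*, and embryonic microglia also divide in place.

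Each plate held its microglia in a single library, with 10878, 10836 and 8946 transcripts per cell in the median. The 6 wells below the minimum all came from the plate 2 library and held 284 to 1245 transcripts, while the shallowest kept cells held 1536 and 1590. Plate 3 stood apart in every gate: *Gm10800*, an unannotated transcript with repetitive sequence, took 26.5% of the transcripts of its microglia against 4.11% and 6.17% on plates 1 and 2. Plate 3 values therefore rest on 6 cells and on a smaller remainder of transcripts. Its microglia library is numbered 11 in the sample title and 12 in the count table and the list of wells, and the cells were matched to gates by the number 12, so every plate 3 microglia value rests on that match. The well barcodes are reused from library to library (58 were shared by the microglia of plates 1 and 2), so a shared barcode does not mark a shared cell.

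The 5 markers *C1qa*, *Ctss*, *Csf1r*, *P2ry12* and *Cx3cr1* were found where the gate predicts them. At least 3 of the 5 were found in 123 of 128 cells, or 96.1% (exact Clopper-Pearson 95% interval 91.1 to 98.7), and all 5 in 115 cells. The same test was met by 0.813% of neural, 1.90% of mural and 1.78% of endothelial cells. Intervals of this kind cover counting error only.

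Levels below are transcripts scaled to a total of 1000000 (CPM) in the summed cells of a gate on a plate. Fold changes compare the microglia gate with the mean of the log2 levels of the other gates over the plates. A gene can therefore be called higher although another gate exceeds microglia. *P2ry12* (chromosome 3 of GRCm38) stood at 1115 CPM on plate 1, 1054 on plate 2 and 848 on plate 3, and at 24.0 CPM at most in any other gate. Its log2 fold change was 7.95 (SE 0.34, edgeR quasi-likelihood adjusted p = 6.45e-28). *Cx3cr1* stood at 1214, 1277 and 1519.9 CPM, against 48.0 at most elsewhere. All microglia sums lay above all sums of the other gates for both receptors. *Ctss*, which encodes the lysosomal protease cathepsin S (chromosome 3 from 95526786 to 95556403), reached 2849.9, 2260.0 and 3324 CPM. *Csf1r* gave 2074, 1964 and 2528 CPM, and *C1qa*, a chain of complement C1q (chromosome 4 from 136895917 to 136898803), gave 726, 984 and 1085. The plates differed from each other far less than the gates did. In single cells *P2ry12* ran from 0 to 40 transcripts with a median of 9.5, and it was found in 94.5% of microglia and in 0.813% of neural cells. Once every cell was thinned to 1500 transcripts, the share of microglia with *P2ry12* was 71.1%, so cells without a transcript cannot be read as cells without expression.

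**Figure D1:**
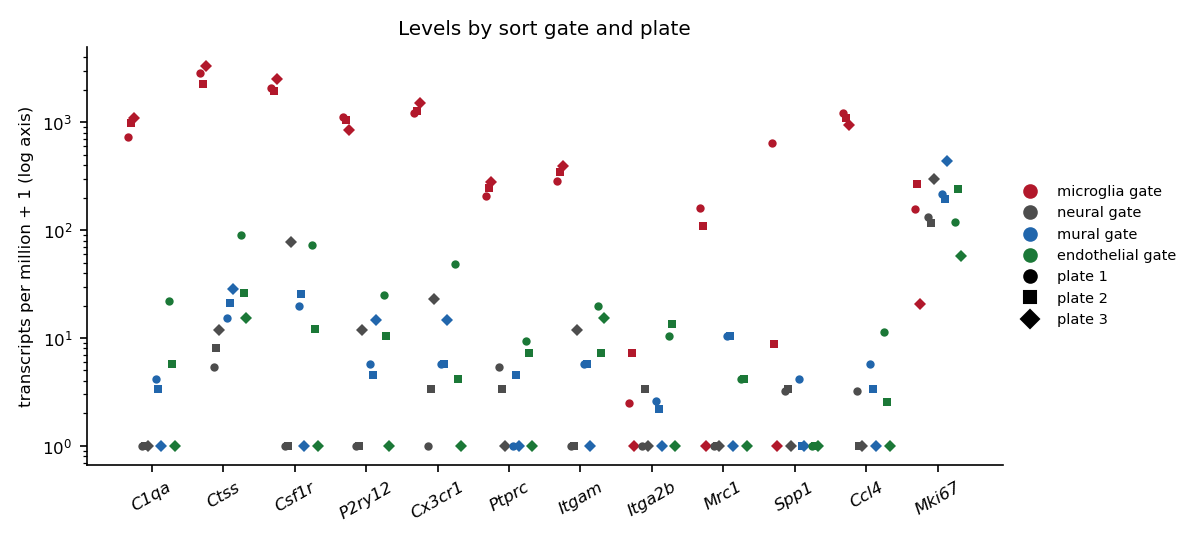
CPM plus 1 (log axis) of 5 microglia markers, 3 sort antigens, a macrophage gene, an activation gene, a chemokine and a proliferation gene, by sort gate (colour) and plate (symbol); each point is the sum of the cells of a gate on a plate. The red points of the 5 markers lie at 726 CPM or more on every plate, *Spp1* is high on plate 1 alone, and *Mki67* overlaps between gates.

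Among the antigens of the sort, *Ptprc*, which encodes CD45, was at 204, 246 and 276 CPM in the microglia gate and *Itgam*, which encodes CD11b, at 284, 345 and 394. *Itga2b*, which encodes CD41, was at 1.48, 6.21 and 0 CPM and was found in 5 of 128 cells, although the gate is named CD41 positive. Endothelial cells held more of it, at 9.38 and 12.6 CPM on plates 1 and 2. The 10 measured genes of the platelet and megakaryocyte list together held 0.00311%, 0.0042% and 0% of microglia transcripts, and 4 of them, among them *Gp1ba* and *Gp5*, were at 0. *Pdgfrb* and the endothelial gene *Cldn5* were at 4.44 CPM or less on every plate, and the neural, mural and endothelial lists held at most 0.0215%, 0.00901% and 0.00855% of transcripts. *Nes*, an intermediate filament gene of neural progenitors, was the exception on the neural list, with 181, 152 and 158 CPM in microglia and no difference that passed the test (log2 fold change 0.46, adjusted p = 0.106).

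Over all genes, 9281 passed the filter on low counts. Of these, 4.61% were higher in the microglia gate by over 10-fold at an adjusted p under 0.05, 7.63% were lower by over 10-fold, 22.2% were higher at any fold and 21.2% were lower at any fold. In 8.58% the 3 microglia sums lay above all 9 sums of the other gates. The median log2 fold change over all genes tested was -0.03. The counts of each list below are to be read against these shares. The lists were chosen with results of these data known, so their counts describe the cells and are not independent evidence.

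The homeostatic list held 1.86%, 1.81% and 1.90% of microglia transcripts on the 3 plates, against 0.0585% to 0.578% in the other gates. Of its 22 genes, all tested, 21 were higher and 17 of these by over 10-fold, with a median log2 fold change of 7.10. With *Slc2a5*, which no other gate carried, at its lower bound the median was 7.0. Both counts stayed at 21 and 17 without plate 3. They were 20 and 16 of 21 genes without plate 1, 19 and 17 of 21 without plate 2, and 20 and 16 of 22 with DESeq2. *Fcrls*, a scavenger receptor of mouse microglia, stood at 1164, 1104 and 868 CPM. *Siglech*, a sialic acid binding receptor, stood at 373, 414 and 256 CPM. Among the receptors the purinergic receptor *P2ry13* (log2 fold change 7.48, SE 0.33) and the lysophosphatidylserine receptor *Gpr34* (7.98, SE 0.39) were also higher, beside 7.95 for *P2ry12*.

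Genes that mark mature microglia were already present at E14.5. *Tmem119* was at 124, 151 and 138 CPM and was found in 57.8% of microglia, in 0 of 123 neural cells, where up to 2.44% of cells with a transcript would go unseen, and in 1.33% of endothelial cells. At the common depth of 1500 transcripts its share in microglia was 18.0%. *Sall1*, a transcription factor of microglial identity, was at 113, 117 and 158 CPM. It was higher at a log2 fold change of 3.27, just under 10-fold, since neural and mural cells also carry it at up to 49.7 CPM. *Slc2a5*, the fructose transporter, was at 99.2, 134 and 39.4 CPM and at 0 in all 9 other sums. Against 3 transcripts over those sums together it was at least 126-fold higher, but DESeq2 did not call it (adjusted p = 0.122).

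A few genes of the list were shared with other gates. *Sparc*, a matrix protein gene, stood at 1452, 1924 and 1718 CPM in microglia, and its highest sum in another gate was 4494 CPM. Its log2 fold change of 1.02 (adjusted p = 0.00139) no longer passed without plate 2, at 0.95. *Jam2*, a junction adhesion molecule of endothelium, was the single gene of the list that was lower, at 2.96, 7.77 and 0 CPM and a log2 fold change of -2.03, and it did not pass without plate 1, at -1.26, or with DESeq2 (adjusted p = 0.0692). *Mef2c*, *Rhob* and *Sall1* were higher by less than 10-fold.

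**Figure D2:**
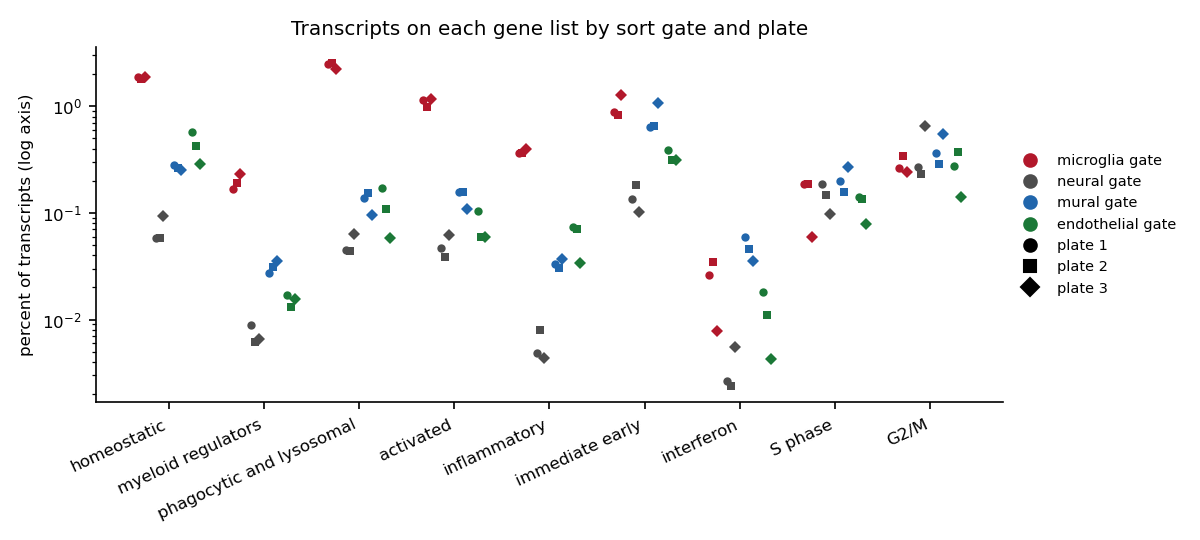
Percent of all transcripts on each of 9 gene lists (log axis), by sort gate (colour) and plate (symbol). Homeostatic, regulator, phagocytic, activated and inflammatory lists are higher in the microglia gate on every plate, while the S phase and G2/M lists overlap between gates.

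The regulators of the myeloid lineage followed the same division. Of 12 listed genes 11 were tested, all were higher and 10 by over 10-fold, with a median log2 fold change of 4.92. *Spi1*, which encodes PU.1, the factor macrophages need to form, was at 87.3, 118 and 59.1 CPM and found in 60.9% of cells. *Irf8* (173, 185 and 197 CPM) and *Runx1* (175, 216 and 296 CPM) are further factors of the lineage. *Csf1*, a ligand of CSF1R, was itself found in 35.2% of microglia, at 65.1, 174 and 98.5 CPM. *Il34*, the other ligand of that receptor, was found in 0 of 128 microglia, a count at which up to 2.34% of cells with a transcript would go unseen (the same limit holds for every gene below at 0 of 128, and it limits cells with a transcript, not cells that express the gene), and reached 30.7 CPM in mural cells.

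Phagocytic and lysosomal genes held 2.47%, 2.54% and 2.21% of microglia transcripts. All 20 were higher, 18 of them by over 10-fold, and the median log2 fold change was 5.80. *C1qb* ran at 3392, 3269 and 3144 CPM, with 0 to 93 transcripts per cell and a median of 35, and *C1qc* at 1897, 2009.7 and 1836 CPM. The lysosomal proteases *Ctsb* (4276, 4192 and 3362 CPM) and *Ctsd* (2219.9, 2348 and 1737 CPM) belong to the cathepsins, as does *Ctss*. *Trem2*, a lipid-sensing receptor, and its adaptor *Tyrobp* were found in 89.8% and 98.4% of cells. *Mertk*, a receptor for dying cells, had a log2 fold change of 4.26, whereas its relative *Axl* had 1.16. *Axl* stood at 51.8, 77.7 and 78.8 CPM in microglia and at 293, 368 and 302 CPM in mural cells. Its call was lost without plate 1 or without plate 2, at 1.15 and 0.74, with DESeq2 and when cells were thinned.

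The promoters of microglia genes and of cycling genes were read from RefSeq (GRCm38.p6), 250 bases before to 50 after the start of the transcript. The letters GAGGAA, a core of PU.1 sites, TTTGAA, the cell cycle genes homology region, and CCAAT were searched on both strands; no match of one overlapped a match of another in the promoters printed. Of 32851 promoters of this length 28.3% held GAGGAA, 17.9% held TTTGAA and 37.4% held CCAAT. Among 19 promoters of the phagocytic list the shares were 57.9%, 5.26% and 36.8%, and among 21 of the homeostatic list 38.1%, 14.3% and 52.4%. *Ctss* is shown as a promoter with 2 GAGGAA matches and *Cx3cr1* as one with none, both strands counted, with matches to any of the 3 strings in capitals:
Ctss: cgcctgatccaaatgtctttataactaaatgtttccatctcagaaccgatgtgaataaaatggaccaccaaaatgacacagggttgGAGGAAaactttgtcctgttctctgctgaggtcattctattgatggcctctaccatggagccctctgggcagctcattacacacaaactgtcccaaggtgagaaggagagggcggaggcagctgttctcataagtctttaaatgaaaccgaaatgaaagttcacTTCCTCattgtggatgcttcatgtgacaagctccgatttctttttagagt
Cx3cr1: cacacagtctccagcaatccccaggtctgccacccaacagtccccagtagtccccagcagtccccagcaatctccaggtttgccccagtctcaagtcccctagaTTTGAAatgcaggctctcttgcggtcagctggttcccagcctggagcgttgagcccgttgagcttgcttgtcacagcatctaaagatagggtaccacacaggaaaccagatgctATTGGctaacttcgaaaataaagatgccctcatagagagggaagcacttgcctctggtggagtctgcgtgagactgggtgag
The *Ctss* window spans chr3:95526536-95526835 on the plus strand and the *Cx3cr1* window chr9:120068247-120068546 on the minus strand. The *P2ry12* promoter held 1 CCAAT and neither of the others. A match describes the letters in the window and is not evidence of a bound site.

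Genes of the activated list ranged from *Apoe*, found in every cell, to *Cst7*, found in none. It held 1.15%, 0.981% and 1.17% of microglia transcripts. Of 22 listed genes 14 passed the filter, which a gene can pass through the microglia alone; 13 of these were higher and 9 by over 10-fold, and without plate 3 the counts were 12 and 10 of 13. Without plate 1, and likewise without plate 2, 8 of 11 were higher and 6 by over 10-fold. *Apoe*, a lipid carrier, was found in every microglial cell, at 7246, 6078.5 and 9042 CPM (log2 fold change 5.82, SE 0.32, adjusted p = 1.24e-23). *Apoe* alone made up 63.0%, 61.9% and 77.1% of the list's transcripts on the plates. *Lpl*, a lipase, was at 720, 411 and 237 CPM in 75.0% of cells, *Cd9*, a tetraspanin, at 349, 362 and 315 CPM, and *Ctsc*, a protease, at 461, 425 and 315 CPM.

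At the other end, *Cst7* was at 0 in all 128 cells, *Gpnmb* was found in 2.34% of cells and *Itgax*, which encodes CD11c, in 9.38%. *Clec7a*, a glucan receptor, was found in 18.0% and had a log2 fold change of 7.34. *Fabp5*, *Anxa5*, *Ank* and *Lgals1* were carried by other gates too, with log2 fold changes of 0.26, 0.71, 1.28 and 2.0. Mean CPM was highest in mural cells for *Fabp5* (319, against 79.0 in microglia), *Anxa5* (224 and 85.4) and *Lgals1* (186 and 65.2). It was highest in neural cells for *Ank* (28.8 and 22.7). *Fabp5* did not pass the test, and the other 3 were lost with DESeq2. *Anxa5* and *Ank* were also lost without plate 1, without plate 2, without the filter on low counts, with upper quartile scaling and without *Gm10800* and mitochondrial genes. *Lyz1*, a lysozyme gene, was at 372, 1004 and 552 CPM; its near-identical neighbour *Lyz2* has no row in the single-cell tables. In bulk microglia *Lyz1* was listed at 11.9, 0 and 13.8 normalized counts and *Lyz2* at 12220.5, 15769.5 and 31762, so the single-cell value of *Lyz1*, which is among the 9 genes over 10-fold, is uncertain as to the gene.

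*Spp1*, which encodes osteopontin, was carried by a minority of cells on plate 1. It stood at 647 CPM there, 7.77 on plate 2 and 0 on plate 3. On plate 1 it was found in 15 of 64 cells and on plate 2 in 1 of 58. One cell held 357 of the 437 transcripts of plate 1, or 81.7%, and without it the plate stood at 122 CPM. The same cell carried 59 transcripts of *Lpl* and 22 of *Igf1*, a growth factor, beside 8 of *P2ry12* and 57 of *C1qb*, among 16775 in all. On plate 1 the 15 cells with *Spp1* held 1492 CPM of *Lpl* and 226 CPM of *Igf1*, while the 49 without held 481 and 64.0 CPM. Without the cell with most *Spp1* the other 14 held 1251 CPM of *Lpl* and 98.0 CPM of *Igf1*. *Igf1* was found in 8 of the 15 and in 9 of the 49. These differences between cells of a single library have no replicate, and whether plate 1 differed by its brain or by its preparation was not tested.

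Inflammatory mediators were present in most of the cells. The list held 0.364%, 0.363% and 0.396% of microglia transcripts. Of 20 genes 14 passed the filter, which a gene can pass through the microglia alone. All 14 were higher and 10 by over 10-fold, with a median log2 fold change of 6.41. Without plate 1, and likewise without plate 2, 13 of 13 were higher. Without plate 3, 15 of 17 were higher and 1 was lower, and with DESeq2 13 of 20 were higher and 1 was lower. *Cxcl2* lost its call with DESeq2 and *Nfkbia* when cells were thinned. *Ccl4* was at 1212, 1098 and 947 CPM and *Ccl3* at 592, 629 and 592 CPM, both chemokines of the macrophage inflammatory protein family. They were found in 74.2% and 81.2% of microglia and in at most 6.67% of the cells of another gate. *Il1a* was at 281, 241 and 434 CPM, *Tnf* at 77.0, 93.3 and 78.8 CPM, and *Il1b* at 85.9, 101 and 39.4 CPM. *Il1b* was found in 17.2% of microglia, and a single cell held 23.2% of its transcripts. *Cd83*, a surface gene of activated myeloid cells, was found in 88.3%. By contrast *Il6* and *Nos2* each were found in 2 cells, and *Cxcl1* in 0 of 128. *Nos2* reached 33.0 CPM in endothelial cells and *Cxcl1* 28.4 CPM in mural cells, and neither is among the 14 tested.

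Immediate early genes, which respond within minutes to a stimulus and to tissue dissociation, took 0.888%, 0.837% and 1.27% of microglia transcripts. Mural cells held 0.636%, 0.656% and 1.07% on the list. All 19 tested were higher than the mean of the other gates, but 3 by over 10-fold, and the median log2 fold change was 1.84. In 7 of the 19 the microglia sums lay above all other sums. *Hspa1a* was called higher although mural cells held 474, 625 and 2042 CPM, against 151, 136 and 335 in microglia. *Ier3* and *Hspa1a* lost their calls without plate 1 and with DESeq2, and *Hspa1a*, *Fos* and *Jun* when cells were thinned. *Atf3*, a stress-induced factor, was at 1359, 1234 and 1224 CPM in 97.7% of microglia and 179 CPM at most elsewhere (log2 fold change 5.18, SE 0.30). *Zfp36*, which limits cytokine transcripts, and *Rgs1*, a G protein regulator, had log2 fold changes of 3.97 and 7.04. *Fos* gave 379, 374 and 1781 CPM and *Jun* 982, 755 and 2317 CPM, so both were highest on plate 3 with its 6 cells. *Fos* and *Jun* reached 1945 and 1807 CPM in other gates. The brains were dissociated with Liberase and DNase I before sorting, and no library without dissociation was analysed here, so genes induced in the brain and genes induced by the preparation cannot be told apart.

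Interferon genes were sparse. The list held 0.0262%, 0.0348% and 0.00788% of microglia transcripts, and 93 of 128 thinned cells held none. Mural cells held more of the list on every plate, at 0.0595%, 0.0455% and 0.0357%. Of 14 genes 4 were tested and 3 were higher than the mean of the other gates. This count fell to 2 without plate 1, to 1 without plate 2 and to 1 with DESeq2. In none of the 4 did all microglia sums lie above the other sums. *Bst2*, which encodes tetherin, was at 121, 121 and 19.7 CPM (log2 fold change 3.68). *Ifit1*, *Ifit2*, *Ifit3* and *Rsad2* were each found in 0.781% of cells.

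Across cells the lists varied to different degrees. In cells thinned to 1500 transcripts the homeostatic list gave 1 to 77 transcripts with a median of 27, and the phagocytic list 4 to 74 with a median of 37.5. The activated list gave 1 to 76 with a median of 12. The variance over the mean was 5.01 for the homeostatic, 4.31 for the phagocytic, 10.2 for the activated and 13.2 for the immediate early list, where 1 is counting noise alone. The order of the last 2 turned between plates, with 12.99 and 7.97 on plate 1 and 7.64 and 19.2 on plate 2, where a single cell held 125 immediate early transcripts. Across the 64 cells of plate 1 and the 58 of plate 2, the homeostatic and activated lists had a Pearson r of 0.06 and -0.01. The inflammatory and immediate early lists had 0.48 and 0.53, and the phagocytic and homeostatic lists 0.36 and 0.39. These correlations describe cells of the same library, with thinned depth in common, and list genes share no member.

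**Figure D3:**
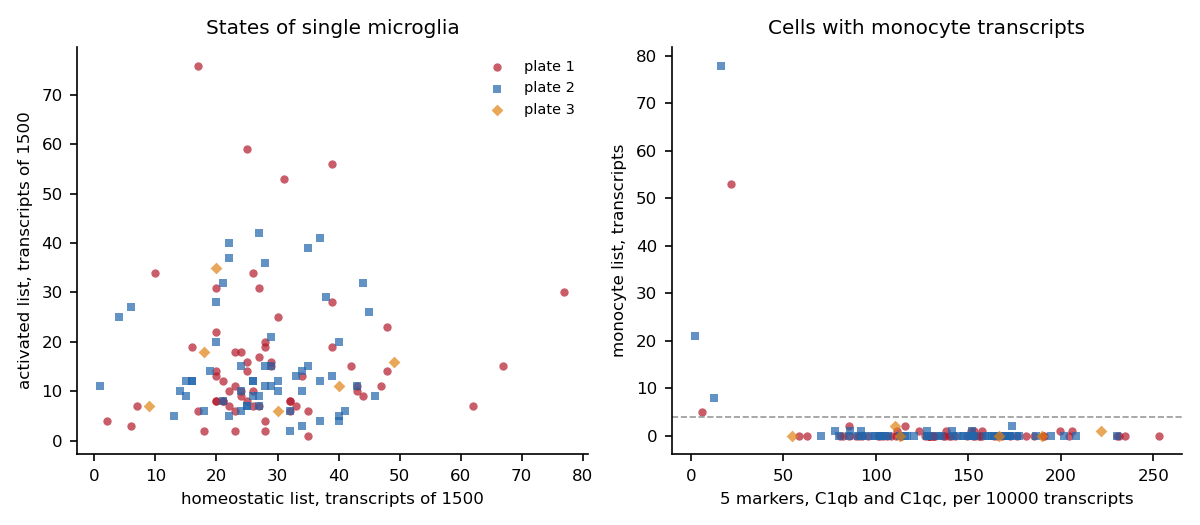
Each point is a microglia gate cell, coloured by plate. The left plot sets transcripts of the activated list against the homeostatic list after thinning to 1500 transcripts, and the right plot sets monocyte list transcripts against the 5 markers with *C1qb* and *C1qc* per 10000 transcripts, where 5 cells lie above the dashed line.

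The genes most like *P2ry12* over cells were partly different on the 2 large plates. Among 5269 genes found in at least 20% of microglia, *Sparc* had the highest correlation on plate 1 (r = 0.65 over 64 cells) and ranked 3 on plate 2 (r = 0.58 over 58 cells). Of the others among the 8 highest on plate 1, *Serinc3* had 0.38 and *Gabarap* 0.04 on plate 2. The 15 genes with the highest variance over mean on plate 1 shared 9 with the 15 of plate 2. Next to *Gm10800*, mitochondrial ribosomal RNA, *Gm42418* and *Lars2*, they held *Apoe* (9.82 and 9.47 on the plates), *Ccl4* (5.42 and 3.66), *Jun* (4.36 and 9.44) and *Tmsb4x*, an actin-binding gene (4.14 and 4.16), beside a median of 1.23 and 1.21 over all genes ranked. *Spp1* ranked 2 on plate 1 with 35.8 and was not measured above the minimum on plate 2.

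A small set of cells carried transcripts of blood monocytes. On a list of monocyte and granulocyte genes, 104 cells held 0 transcripts, 19 held 1 or 2, and 5 held 5 or more, up to 78. The threshold of 5 was set after these values were seen. The 5 cells were 3.91% of the gate (exact 95% interval 1.28 to 8.88), 2 from plate 1 and 3 from plate 2, and none of 558 cells of the other gates reached the threshold. The 3 deeper of them, with 19685, 17826 and 9279 transcripts, held 18, 16 and 8 of *Ccr2*, the chemokine receptor of inflammatory monocytes, and 8, 37 and 13 of *Plac8*. One also held 17 of *Ly6c2* and 35 of *S100a8*. All 3 held 0 of *C1qa*, 0 or 1 of *P2ry12* and 15 to 31 of *Lgals3*, where the other microglia held medians of 8, 11 and 0. In the same order they held 19, 28 and 0 of *Ctss* and 9, 5 and 0 of *Csf1r*, against medians of 27 and 22. All 3 carried *Ptprc* and *Itgam*, and the gate does not separate them from microglia. The other 2 cells held 1590 and 1720 transcripts. Without the 5 cells 420 genes were higher by over 10-fold, and the counts of the homeostatic, phagocytic and inflammatory lists did not change. The activated list then had 8 of 13 genes higher by over 10-fold, as *Lgals3* no longer passed the filter on low counts.

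Genes of border-associated macrophages, which line the meninges and vessels, were present in part. *Mrc1*, which encodes the mannose receptor CD206, was at 160, 109 and 0 CPM and found in 36.7% of microglia, against 0 of 123 neural and 6.67% of mural cells. *Dab2* was found in 51.6% and *Stab1* in 41.4%, and both were also present in endothelial cells. *Lyve1*, *Cd209f* and *Clec10a* were at 0 in all 128 cells, and *F13a1* and *Folr2* reached 17.1 and 10.4 CPM at most. Of the 10 measured genes of the list, 34 cells held none, 41 held 1, and 5 held 5, the most in any cell.

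Proliferation genes did not separate the microglia gate from the others. The G2/M list held 0.266%, 0.340% and 0.242% of microglia transcripts, within the range of 0.140% to 0.656% in the other gates. Of 38 genes tested 1 was higher, *Arl6ip1* (log2 fold change 0.99), 1 was lower, *Kif22* (-1.49), and none changed by over 10-fold. The median log2 fold change was -0.08. *Mki67*, a marker of dividing cells, was at 156, 269 and 19.7 CPM with a log2 fold change of 0.25 (SE 0.30, adjusted p = 0.531). Without plate 3 and its 6 cells *Mki67* was called higher, at 0.61 (edgeR adjusted p = 0.0144). *Top2a*, which untangles DNA, was at 133, 194 and 138 CPM with 0.01 (SE 0.26, adjusted p = 0.976). For both genes the sign turned under some settings, among them DESeq2 (-0.21 and -0.18).

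The S phase list gave 0.188%, 0.188% and 0.0591%. Of 29 genes tested 8 were higher, among them the replication helicase subunits *Mcm3* (1.29) and *Mcm5* (1.13) and the clamp *Pcna* (1.03), and 1 was lower. This count rested on plates 1 and 2: it was 1 without plate 1, 0 without plate 2, 11 without plate 3 and 1 with DESeq2.

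Counted by cell, 50 of 128 microglia, or 39.1% (exact 95% interval 30.6 to 48.1), held transcripts of at least 3 G2/M genes after thinning to 1500. By plate these were 23 of 64, 25 of 58 and 2 of 6. The shares were 22.0% in neural, 30.5% in mural and 30.7% in endothelial cells, and without thinning 87.5% of microglia met the same rule. The order of the shares goes against that of the list's level, which was not highest in microglia, so no order of gates is read from it. Near the threshold 9 microglia held exactly 3 genes and 21 held 2. At least 3 S phase genes were found in 44 cells, of which 23 also met the G2/M rule. *Mki67* was found in 68.0% of the 50 cells and in 14.1% of the other 78, as the rule makes likely.

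**Figure D4:**
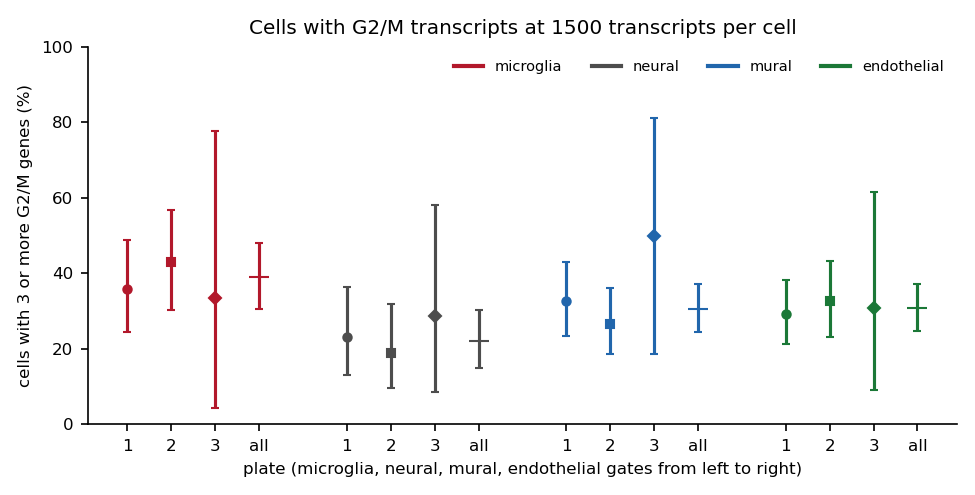
Percent of cells with transcripts of at least 3 G2/M genes after thinning to 1500 transcripts, by plate and for all plates together (wide dash), in 4 sort gates; bars are exact 95% intervals, which cover counting error only. Microglia stood at 35.9%, 43.1% and 33.3% on the plates, and the intervals of the gates overlap on each plate; over all plates together the intervals of microglia (30.6 to 48.1) and neural cells (14.99 to 30.3) do not.

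Cells with G2/M transcripts were set beside cells without on each plate. Of the 5 cells with monocyte transcripts 4 were in the group with G2/M transcripts, which held 0.0267% and 0.0323% of transcripts on the monocyte list on plates 1 and 2 against 0.00222% and 0.00598%. The homeostatic list held 1.77% of transcripts in the 23 cells with G2/M transcripts on plate 1 and 1.91% in the 41 without, and 1.61% and 1.98% in the 25 and 33 of plate 2. The phagocytic list held 2.29% and 2.56% on plate 1 and 2.29% and 2.75% on plate 2. *P2ry12* was at 988 and 1178 CPM on plate 1 and 838 and 1234 on plate 2, while *Cx3cr1* was lower with G2/M transcripts on plate 1 (1068 and 1287 CPM) and higher on plate 2 (1320 and 1242 CPM). Without the 5 monocyte cells, a setting chosen after seeing the data, the homeostatic list held 1.90% and 1.91% on plate 1, which removes most of that difference, and 1.70% and 2.03% on plate 2. The phagocytic list then held 2.43% and 2.56%, and 2.39% and 2.80%. The list of myeloid regulators, at 0.178% and 0.164% on plate 1 and 0.172% and 0.207% on plate 2, went opposite ways on the plates, and without the monocyte cells it held 0.168% and 0.164% on plate 1. *P2ry12* then stood at 1077 and 1178 CPM on plate 1 and at 903 and 1267 on plate 2. The S phase list, which the rule did not use, held 0.240% and 0.162%, then 0.287% and 0.106%. The median depth was 11228 transcripts with and 10363 without. Each plate is a single library, so no test was made.

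The genes most like *Mki67* on plate 1 were mostly cycling genes. Of the 8, *Tpx2*, *Cdk1*, *Top2a*, *Cenpf* and *Ccna2* are on the G2/M list, with r from 0.60 to 0.71 on plate 1 and from 0.36 to 0.75 on plate 2. *2810417H13Rik*, which is on no list, had 0.64 and 0.78. Of 37 G2/M promoters 70.3% held TTTGAA and 78.4% held CCAAT, against the 17.9% and 37.4% of all promoters given above, and 32.4% held GAGGAA. *Top2a* with 6 CCAAT and 2 TTTGAA matches and *Cdk1* with 3 and 2 are shown, matches to the 3 strings in capitals as before:
Top2a: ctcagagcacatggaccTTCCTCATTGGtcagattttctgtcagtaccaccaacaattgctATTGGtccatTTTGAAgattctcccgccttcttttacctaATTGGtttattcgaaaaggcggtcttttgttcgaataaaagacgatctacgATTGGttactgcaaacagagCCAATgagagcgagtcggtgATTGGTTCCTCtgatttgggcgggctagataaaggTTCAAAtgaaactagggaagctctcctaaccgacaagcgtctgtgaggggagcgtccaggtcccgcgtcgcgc
Cdk1: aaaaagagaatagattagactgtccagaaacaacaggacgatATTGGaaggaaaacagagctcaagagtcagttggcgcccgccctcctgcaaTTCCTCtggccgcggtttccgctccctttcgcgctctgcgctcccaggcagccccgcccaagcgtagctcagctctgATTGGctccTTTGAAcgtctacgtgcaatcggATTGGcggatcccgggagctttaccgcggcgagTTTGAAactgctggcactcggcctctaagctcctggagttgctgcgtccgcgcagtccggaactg
These windows span chr11:99024140-99024439 and chr10:69352863-69353162, both on the minus strand. *Ccnb1* held 2 CCAAT and no TTTGAA, and *Plk1* 1 of each.

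Outside the lists, the genes with the largest fold changes whose microglia sums all lay above the other sums included several known from macrophages. *Cryba4*, a crystallin gene, was at 151, 180.3 and 78.8 CPM (log2 fold change 8.80, SE 0.47). *Pld4*, a lysosomal exonuclease, was at 302, 294 and 256 CPM (8.70, SE 0.39), and *Mpeg1*, a pore-forming protein of macrophages, at 1055, 1037 and 1045 CPM (8.68, SE 0.39). *Adgre1*, which encodes F4/80, stood at 296, 305 and 177 CPM. *Cybb*, the oxidase subunit of phagocytes, *Myo1f* and *Nckap1l* had log2 fold changes of 8.05, 8.02 and 7.89, and *AI607873* of 8.33. *Abcg3* was at 0 in all 9 other sums and at least 71.7-fold higher, but DESeq2 did not call it (adjusted p = 0.186).

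Cells of other gates carried low levels of these transcripts, and the amount differed between libraries. The mural cells that shared a library with microglia held 148 CPM of the 5 markers together on plate 1 and 178 on plate 2, which is 1.86% and 2.37% of the level of the microglia beside them. The mural libraries of those plates without microglia held 2.26 and 17.1 CPM, and the 10 mural cells of plate 3, whose library held no microglia either, stood at 54.9 CPM. *C1qb* was found in 60.9% and 67.9% of the mural cells of the shared libraries and in 1.39%, 3.90% and 0% of the others. The highest level, 475 CPM, was in 28 endothelial cells of plate 1 whose library held no microglia. With cells of other gates in the shared libraries left out, 468 genes were higher by over 10-fold. Of the 428 genes, which were chosen on sums that hold these cells, 172 and 162 were at 0 in the mural cells of the 2 shared libraries. Of the remaining 256 and 266 genes, 136 and 148 were over 10-fold higher in the microglia of the same library, with a median of 10.8-fold and 11.4-fold. In these 28 cells *C1qb* was found in 5. The source of such transcripts in other gates was not tested.

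**Figure D5:**
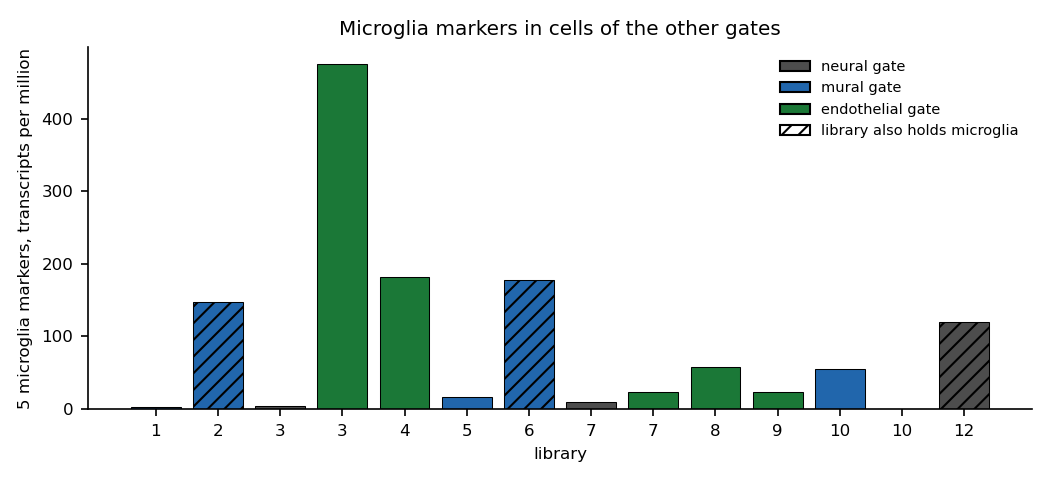
CPM of the 5 microglia markers together in the cells of the other gates, a bar for each library and gate; colour gives the gate and hatching marks libraries that also hold microglia. Mural libraries 2 and 6, which hold microglia, stand at 148 and 178 CPM, mural libraries 1, 5 and 10 at 2.26, 17.1 and 54.9, and the endothelial cells of library 3 at 475.

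The bulk libraries gave the same direction for most genes called higher in the single-cell sums. Fewer cells of a type and less RNA per cell cannot be told apart in such libraries. In limma on log2(normalized count + 1), 8.27% of 19765 genes were higher in microglia by over 10-fold and 7.45% lower, and 23.4% were higher and 22.3% lower at any fold. Of 8824 genes tested in both readouts, 414 were called in the single-cell sums and 497 in bulk, and 375 in both, which is 90.6% of the former and 75.5% of the latter. Of the 414 genes, 412 were higher in bulk at any fold and 0 were lower. Genes lower in the single-cell sums and higher in bulk were not counted. The homeostatic list had 16 of 22 called by over 10-fold in bulk, the phagocytic 18 of 20, the activated 15 of 20 and the inflammatory 15 of 20. *Cst7*, which was at 0 in the single cells, had a mean of 51.9 normalized counts in bulk microglia, and *Mrc1* had 9573 ± 1380 (SD, n = 3). *Spp1* had a log2 difference of 6.07. The G2/M list had 0 of 40 called by over 10-fold, with 4 higher and 7 lower at any fold, and *Mki67* did not pass there either (-0.29, limma adjusted p = 0.260). The neural bulk libraries were made with another kit than the other 3 populations, and the well table names CD41 for microglia where the bulk gate names CD11b. The study describes CD11b and CD45 for selecting microglia, so how far the gates of the 2 readouts differ cannot be told from these sources.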

How the data were processed

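Single cells of E14.5 mouse brain were sequenced with mCEL-Seq2. The deposited single-cell values are expected counts of transcripts, distinct molecular identifiers (4096 possible) adjusted for identifiers drawn more than once; all 2023646 values above 0 follow that formula. Sums were rounded before testing. For bulk libraries the authors deposited normalized counts (a signal on a linear scale), from which whole reads were recovered for 100% of values within 0.01; recovered totals ran from 17638358 to 98414914 reads. The submitters' processing notes name BWA 0.6.2-r126, STAR, featureCounts, DESeq2 and mm10. The aligner settings are not given in the sources used here.

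Cells were summed by plate and gate (12 sums) and tested with edgeR 4.0.16 (TMM, filter on low counts, quasi-likelihood, two-sided) in R 4.3.3. The contrast was microglia minus the mean of the other gates on the log2 scale. Bulk libraries were tested with limma 3.58.1 on log2(value + 1) for genes with a mean of at least 10. A call needed an adjusted p (Benjamini-Hochberg) below 0.05, and genes counted as over 10-fold also that difference. Where libraries of a gate come from the same brain is not stated, so p-values measure the spread between plates. DESeq2 1.42.0, other filters, blocks and each plate or brain left out were alternatives. Cells and figures used pandas 2.3.3, matplotlib 3.10.9, scipy 1.17.1 and numpy 2.4.6 in Python 3.11.15. Thinning drew 1500 transcripts per cell without replacement. Doublets were not removed. The tests were tried on simulated data.

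The plate number is shared by the gates of a plate and the brain number by the populations of a brain, as the labels give them, so both pair the samples. Correlations of deviations between microglia and the other groups of the same number ran from -0.005 to 0.096 for plates and from -0.054 to 0.080 for brains.

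Members and lists were chosen with earlier results of these data known. Genes named are those of the lists, the 10 unlisted genes with the largest fold among those called with all microglia sums above the others, the 15 most variable, the 8 most like *P2ry12* and *Mki67*, and the 10 called in one readout alone. Of bulk gene IDs 99.6% had a symbol in the GRCm38 annotation. Promoters were found for 7 of 8 genes sought, *C1qa* being the other. Plates of knockout cells were not used here, since their wells carry no gate. Results for some genes are not reported here.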

Additional observations from a re-analysis of the deposited data

Results flagged for a closer look

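In wells of plates 1 to 3 sorted with another gate or none, which enter no comparison, the 5 microglia markers together stood at 54.8 CPM over 23 of 62 wells above the minimum. In 4 of these wells a marker was found, with at most 3 transcripts.

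Each library holds 96 barcodes without a well. In the libraries that hold microglia they carried 1.30% of the transcripts of library 2 (plate 1), 1.49% of library 6 (plate 2) and 5.08% of library 12 (plate 3), and none of these barcodes passed the minimum. The 4 values are given because they lie in data that no comparison used, above 0, and no group of 4 to 10 samples was large enough to look for single samples that stand apart.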

How the results depend on the processing

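The number of genes higher in microglia by over 10-fold, 428, was 786 without the filter on low counts, 272 with a sum per library and gate, 106 with every cell thinned to 1500 transcripts and 1584 at over 2-fold. It was 457 with DESeq2, 411 with upper quartile scaling, 421 at a minimum of 3000 transcripts and 421 without *Gm10800* and mitochondrial genes. It ran from 324 to 489 with each plate left out. Added after seeing the data, it was 420 without the cells with monocyte transcripts, 364 without cells with G2/M transcripts and 468 without other gates in shared libraries. With the replicate block it was 430 for plates, and 1615 in place of 1634 for brains in bulk. They share 427 and 1608 genes with the fits without a block, and among the genes named they changed only the call of *Xist* (log2 fold change 0.50). In bulk a pseudocount of 10 gave 947 genes, recovered reads in edgeR 1964, no filter 1781 and brains left out 1289 to 1650. The share of microglia with G2/M transcripts, 39.1%, was 55.5% with 2 genes needed, 24.2% with 5, 67.2% unthinned with 5, and 35.7% to 42.2% with plates left out.

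Values that turned sign belong to 4 genes that passed no test in the single-cell sums of all plates and cells. *Fabp5* (0.26) gave -0.035 with DESeq2 and -0.14 to 0.43 with each plate left out. *Mki67* (0.25) gave -0.21 with DESeq2, -0.43 to 0.61 with each plate left out, the last called (without plate 3, adjusted p = 0.0144), and -2.92 without cells with G2/M transcripts, a setting that removes its carriers by construction. *Top2a* (0.01) gave -0.18 with DESeq2, -0.11 with upper quartile scaling, -0.020 at 3000 transcripts, -0.18 thinned, -0.021 without *Gm10800* and mitochondrial genes, -0.29 to 0.13 with each plate left out and -2.94 without cells with G2/M transcripts. *Slfn8* (0.54) gave -0.25 with DESeq2. The cause was not tested. Of 1931 values for 157 named genes 1870 kept direction and call, 42 lost the call and 3 gained it. Plates 1 and 2 could not be compared by library, since each holds microglia in a single one. Depth limits the shares of low genes, as the thinned shares show.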

Other observations

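Some genes were called in a single readout. In bulk microglia alone, *Ms4a6c*, a membrane gene of myeloid cells, had a log2 difference of 11.4, *Fcgr2b*, the inhibitory antibody receptor, 10.1, *Was*, the actin regulator, 9.90, *Csf3r*, the G-CSF receptor, 9.35, *Cxcr2* 9.19 and *Slfn8* 9.01. In the single-cell sums the first 4 were higher at log2 fold changes of 2.87, 2.89, 2.43 and 2.16, below 10-fold, and *Cxcr2* (0.26) and *Slfn8* (0.54) did not pass. *Cxcr2* was at 38.5, 71.5 and 98.5 CPM in microglia and between 21.9 and 81.7 CPM in every other sum. In the single-cell sums alone, *Nab2*, a corepressor of EGR factors, had a log2 fold change of 4.86, *Kcnd1* 4.60, *Ticam1*, an adaptor of toll-like receptors, 4.57, *Akr1b10* 4.15, *Mt1*, a metallothionein, 4.09 and *Serpine2*, a protease inhibitor, 4.04. In bulk all 6 were higher as well, at log2 differences from 1.77 (*Ticam1*) to 3.23 (*Kcnd1*), below 10-fold; *Ticam1* no longer passed without the second (1.68) or the third (2.17) brain by number.

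The X-linked *Xist*, which is transcribed from the inactive X chromosome of females, was at 514, 546 and 414 CPM in microglia of the 3 plates and was found in 89.8% of the cells. The Y-linked *Uty* was at 0 and *Ddx3y* and *Eif2s3y* were each found in 1 cell of 128, while *Kdm5d*, also Y-linked, was found in 6 cells, at 7.40, 1.55 and 19.7 CPM. In bulk microglia *Ddx3y* was at 1.19 normalized counts in the first brain, 4664 in the second and 6574 in the third. The labels do not give the sex of any sample.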
